A study of Mus musculus with 4 samples.

Results

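RNA from the testis of BALB/C mice was compared between a library from embryonic day 18 (E18) and a library from 3 weeks after birth, each made from purchased tissue RNA with no treatment or engineered allele named in the labels. The comparison took in every entry of the deposited tables with at least 1 RPKM (a read count divided by the length of the gene model and the size of the library) in either library, which was 38208 of 112302 entries, and 10825 of these were established symbols, meaning protein-coding genes of the GENCODE annotation with a name that is not a predicted one. Libraries from embryonic day 14 (E14) and from 6 months completed the series. Each stage has 1 library, the labels do not say how many animals a library holds, and no difference below has a replicate check. "Higher" and "lower" therefore describe these libraries. A difference is log2(RPKM + 1) at 3 weeks minus that at E18, a scale that understates the change of low genes, and a gene counts as higher or lower when it differs by at least 1, which is 2-fold on that scale.

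In the fetal testis germ cells stop dividing and wait as prospermatogonia, while Sertoli, Leydig, peritubular and vascular cells build the cords and the tissue between them. After birth the germ cells become spermatogonia, respond to retinoic acid through Stra8, and enter the long prophase of meiosis. There, broken chromosomes search for their partners, the synaptonemal complex joins homologues along their length, and the unpaired X and Y chromosomes are silenced in a sex body. In mice the first cells to pass through prophase reach the round spermatid stage at around the age of the postnatal library here.

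The promoters of 4 genes of the chromosome axis and of crossover formation are shown because a search found in them short letter strings known for factors that act on genes of germ cells or of the cell cycle, so they were chosen after the search. They run 5′ to 3′ on the strand of the gene, from 250 bases before the start to 50 bases from it onward, and come from RefSeq on build GRCm38.p6. Sycp1 lies at chr3:102936051-102936350 on the minus strand, Hfm1 at chr5:106925841-106926140 on the minus strand, Tex12 at chr9:50561219-50561518 on the minus strand and Sycp3 at chr10:88459337-88459636 on the plus strand. Capitals mark a MYB match (CCGTTA) and a STRA8 match (CNCCTCAG) in Sycp1, the STRA8 matches in Hfm1, a STRA8 match and an E2F match (TTCCCGC) in Tex12, and the E-box matches (CACGTG) and an E2F match in Sycp3, each on either strand. Sycp1 and Tex12 also hold an E-box match each, which is left in lower case.
Sycp1: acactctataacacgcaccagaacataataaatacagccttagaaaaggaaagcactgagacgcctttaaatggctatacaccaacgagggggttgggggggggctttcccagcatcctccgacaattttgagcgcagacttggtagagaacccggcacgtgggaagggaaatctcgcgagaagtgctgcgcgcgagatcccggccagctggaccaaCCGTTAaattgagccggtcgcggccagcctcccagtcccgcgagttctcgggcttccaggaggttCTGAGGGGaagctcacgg
Hfm1: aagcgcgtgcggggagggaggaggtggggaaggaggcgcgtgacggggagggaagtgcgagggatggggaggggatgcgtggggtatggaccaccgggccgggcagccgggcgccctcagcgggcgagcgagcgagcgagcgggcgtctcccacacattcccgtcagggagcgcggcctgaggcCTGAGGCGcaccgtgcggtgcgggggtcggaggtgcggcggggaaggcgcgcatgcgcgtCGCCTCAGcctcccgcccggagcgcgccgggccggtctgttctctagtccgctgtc
Tex12: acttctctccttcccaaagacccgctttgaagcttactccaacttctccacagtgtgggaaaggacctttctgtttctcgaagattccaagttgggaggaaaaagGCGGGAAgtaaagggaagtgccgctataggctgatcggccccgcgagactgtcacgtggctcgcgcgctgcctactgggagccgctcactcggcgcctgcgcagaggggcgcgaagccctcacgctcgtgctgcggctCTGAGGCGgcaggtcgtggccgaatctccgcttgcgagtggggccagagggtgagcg
Sycp3: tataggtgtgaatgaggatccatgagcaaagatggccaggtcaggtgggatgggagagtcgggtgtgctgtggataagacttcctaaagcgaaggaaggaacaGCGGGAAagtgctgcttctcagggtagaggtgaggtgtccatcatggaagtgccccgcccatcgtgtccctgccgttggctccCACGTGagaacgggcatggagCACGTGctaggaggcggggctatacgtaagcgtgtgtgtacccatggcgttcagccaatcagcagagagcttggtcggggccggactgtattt
Sycp1, which forms the transverse filaments of the synaptonemal complex, stood at 0.417 RPKM at E18 and 22.8 at 3 weeks. Hfm1, a helicase of crossover formation, stood at 0.101 and 4.48, the central element protein Tex12 at 0.742 and 13.3, and the axis protein Sycp3 at 2.50 and 147. These 4 genes were higher at 3 weeks, and the shares of promoters with each letter string are given after the gene groups.

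Markers of other tissues differed between the libraries, and the E18 library held those of organs beside the fetal testis. Of 10 kidney tubule markers 9 were lower at 3 weeks, with a summed 58.7 RPKM at E18 and 2.32 at 3 weeks and with Kap and Slc34a1 at 0 reads at 3 weeks. Of 7 bladder markers 6 were lower (sums of 53.7 and 1.49, Upk3a at 0 at 3 weeks), as were 6 of 8 liver markers (77.3 and 2.03) and 4 of 8 skeletal muscle markers (46.8 and 1.16). In the other direction, 3 of 12 epididymis markers were higher at 3 weeks, Crisp1, Spink8 and Adam7 (2.76 and 67.9), with Lcn9 and Adam28 at 0 at 3 weeks. None of 8 ovary markers was past 2-fold, and all were under 1 RPKM in both libraries. The germ cell marker Ddx4 was above 1 RPKM in both libraries, as the testis label requires. The Sertoli cell markers Sox9 and Wt1 were above 1 RPKM in both as well, although neither is limited to the testis. The part of these tissues in the results below was not tested. In bulk tissue, fewer cells of a type and less RNA per cell cannot be told apart.

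Across the entries compared, 13742 were higher at 3 weeks (36.0%) and 4532 lower (11.9%). Over all 17113 established symbols, the set against which the gene groups below are read, 2658 were higher (15.5%) and 1625 lower (9.50%), and the median difference was 0.00. At least 1 RPKM was reached by 14550 of the entries at 3 weeks alone and by 4941 at E18 alone. At 16-fold, 182 established symbols were higher and 27 lower, and at 64-fold 31 were higher and 0 lower. Among entries that GENCODE types as long intergenic RNA, 334 in number, 59.0% were higher, while of 1706 processed pseudogenes 19.1% were higher and 22.6% lower. The split of higher and lower depends on the scaling. Among established symbols 62.1% of those past 2-fold were higher on the deposited scale, 45.4% after rescaling by the median of ratios, 46.7% after rescaling over protein-coding symbols and 93.0% after rescaling over ribosomal protein genes. These rescalings moved the difference of an entry of at least 1 RPKM in either library by a median of -0.31, -0.23 and 0.73 on the log2 scale.

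Genes of the meiotic chromosome axis, of recombination and of telomere attachment were higher at 3 weeks as a group. In the 6 lists of these genes, 53 of 88 genes found in the tables were higher and 1 was lower, with a median difference of 1.25, against 15.5% higher among all established symbols. Of the 88, 80 reached 1 RPKM in either library, and of the 941 genes found for all lists 798 did. The counts below are over all genes found. Between E14 and 6 months, a comparison that shares no library with this one, 33 of the 88 were higher and 3 lower, where 17.1% of established symbols were higher and 11.9% lower.

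Most genes that set meiosis in motion were under 2 RPKM at E18 and reached different levels at 3 weeks. Of 13 genes of entry and its germ cell programme, 11 were higher and 0 lower (median 2.73). Stra8, the retinoic acid target that starts meiotic prophase, had 2 reads at E18 and 294 at 3 weeks, or 0.0324 and 4.803 RPKM, and its level was 0.0143 at E14 and 0.837 at 6 months. The ratio of 3 weeks to E18 was 148, with an exact 95% counting interval of 40.7 to 1229. Its partner Meiosin stood at 0.246 and 2.54 RPKM. Meioc and Ythdc2, which act together to clear mitotic transcripts at meiotic entry, stood at 0.373 and 59.8 RPKM and at 1.24 and 8.28, a ratio of 160.3 (124 to 211) for Meioc and of 6.69 (5.88 to 7.63) for Ythdc2. Their RNA-binding partner Rbm46 had 0.872 and 12.01 RPKM. Dazl and Ddx4, RNA-binding proteins that mark germ cells, were present at E18, with 3.53 and 37.6 RPKM and 2.68 and 95.2 RPKM. The intercellular bridge protein Tex14 had 0.559 and 9.32 RPKM, and Sohlh2, a spermatogonial transcription factor, 0.0865 and 3.23. Both members of the list that were not past 2-fold are transcription factors, Sohlh1 (1.75 and 0.960) and Figla (0.269 and 0.737).

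Repressors that keep meiotic genes silent in other cells stood close to the background on the deposited scale. Of 20 such genes 3 were higher and 0 lower, and 7 were higher after rescaling to an equal sum, 14 over ribosomal protein genes and 1 by the median of ratios. The 3 on the deposited scale were Pcgf6, a subunit of a variant Polycomb complex (0.940 and 7.63 RPKM), the histone methyltransferase Setdb1 (3.35 and 7.75) and Dmrt1 (3.18 and 7.49). The partners of Pcgf6 in that complex were not past 2-fold, with Mga at 4.38 and 7.88 RPKM, Max at 4.26 and 4.24, and E2f6 at 3.45 and 1.88. Dnmt1 stood at 6.13 and 6.23. Setdb1 and Dmrt1 lay at the limit, with differences of 1.01 and 1.02.

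**Figure D1:**
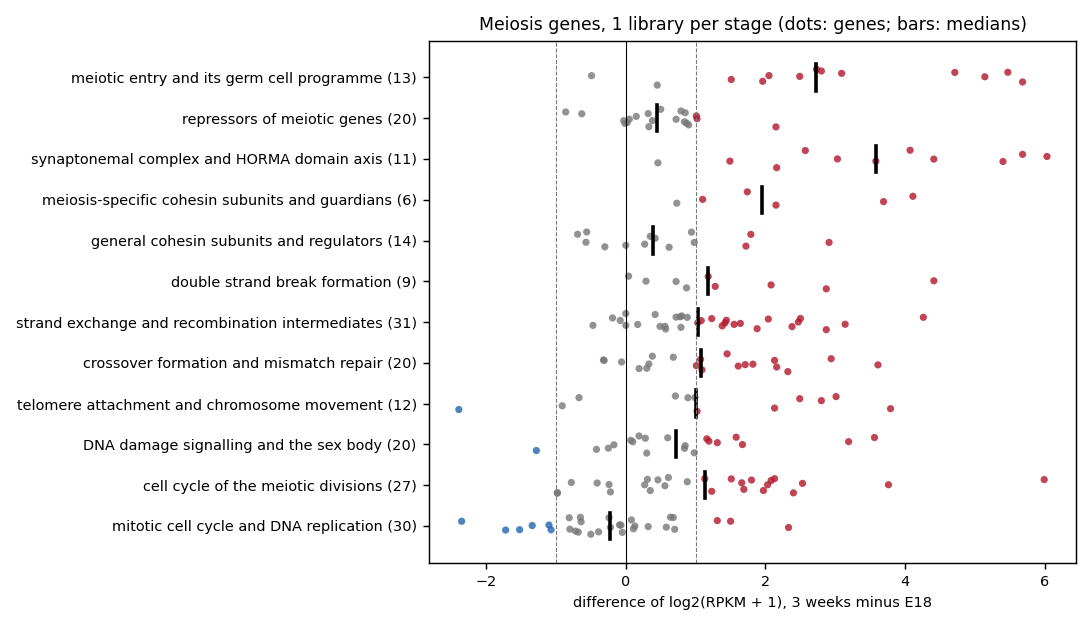
Difference of log2(RPKM + 1), 3 weeks minus E18 (x axis), for each gene of 12 meiosis and cell cycle lists (rows, genes found in parentheses), with red dots at least 2-fold higher, blue dots at least 2-fold lower, dashed lines at the limit and black bars at the medians. The synaptonemal complex list has the median farthest to the right (3.58), and the mitotic cell cycle list is the one with a median below 0 (-0.23), a sign that turns under rescaling over ribosomal protein genes.

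The synaptonemal complex had the highest median of the meiosis lists. Of 11 genes of the complex and its HORMA domain axis 10 were higher and 0 lower (median 3.58). Syce1, of the central element, stood at 0.158, 0.979, 128 and 108 RPKM in the libraries from E14 to 6 months, a ratio of 3 weeks to E18 of 131 (99.0 to 177). Sycp2, an axis protein, had 0.0771, 0.307, 65.9 and 10.7 RPKM at the same stages, and Sycp3, its partner, 0.651, 2.50, 147 and 37.6. Both axis genes were highest at 3 weeks, while Syce1 stood nearly as high at 6 months. Hormad1, which marks unpaired axes, stood at 0.473 and 30.3, and Hormad2 at 0.160 and 5.87. Levels of the central element proteins differed at 3 weeks, from 2.91 RPKM for Syce2 and 5.28 for Six6os1 to 15.96 for Syce3 and the 128 given for Syce1. The remaining gene, Trip13, an ATPase that removes HORMA domain proteins from synapsed axes and also acts in mitotic cells, stood at 2.04 and 3.17.

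Meiosis-specific cohesin subunits and guardians of centromeric cohesion were higher in 5 of 6 cases, against 3 of 14 for general cohesin genes. Over ribosomal protein genes the counts were 6 and 10, and with an equal sum 5 and 5. Smc1b stood at 0.195 RPKM at E18 and 19.6 at 3 weeks and Stag3 at 2.33 and 42.0. Their general counterparts Smc1a (0.942 and 0.582) and Stag2 (4.65 and 2.50) were not past 2-fold. The kleisin subunits were low even at 3 weeks, with Rec8 at 0.372 and 1.94 and Rad21l, the list's member not past 2-fold, at 0.194 and 0.976, while the general kleisin Rad21 stood at 10.1 and 6.45. Meikin, a meiotic kinetochore protein, had 1 read at E18 and 183 at 3 weeks, a ratio of 184 with an interval of 32.7 to 7326. The 3 general genes that were higher load, release or acetylate the ring, Nipbl (2.86 and 28.0 RPKM), Wapl (4.39 and 16.7) and Esco1 (1.71 and 8.38).

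In the machinery that makes double strand breaks, 5 of 9 genes were higher and 0 lower. Spo11, the enzyme that cuts, stood at 0.127 and 7.23 RPKM. Its partner subunit Top6bl had 0.0991 and 0.808, which is not past 2-fold on the scale used, although the ratio of RPKM was 8.15 (4.46 to 16.3). Iho1, which recruits the break machinery to axes, had 0.458 and 5.15, and Mei4 0.0859 and 0.327. Prdm9, the methyltransferase that places breaks, had 0.529 and 2.70, and Zcwpw1, which reads its mark, 2.71 and 7.44. Levels at 3 weeks thus ranged from 0.327 RPKM for Mei4 to 30.3 for Hormad1, which is also counted in the axis list.

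For strand exchange, 16 of 31 genes were higher and 0 lower (median 1.03). Meiob, a single-strand DNA binding protein, stood at 0.0149, 0.102, 20.1 and 3.97 RPKM from E14 to 6 months, with a ratio of 3 weeks to E18 of 198 (90.6 to 540.0). Hsf2bp, which brings BRCA2 to breaks, stood at 0.0786 and 8.48, Psmc3ip (Hop2) at 1.56 and 17.7, and Dmc1, the meiotic recombinase, at 0.395 and 6.24. Brca2 itself stood at 1.04 and 6.51. General repair genes were closer to equal, with Rpa2 at 2.63 and 2.62, Xrcc3 at 1.44 and 1.15 and Rad51d at 0.656 and 0.562. Mnd1, the partner of Psmc3ip, was not past 2-fold (0.936 and 1.85).

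In crossover formation the genes known mainly from meiosis were higher and, among Mus81, Eme1, Exo1, Msh3, Msh6, Pms1, Pms2 and Blm of general repair, Msh3 and Blm were higher and the rest were not past 2-fold. Of 20 genes 12 were higher and 0 lower (median 1.08). Cntd1 and Prr19, which act in crossover maturation, stood at 1.37 and 27.9 RPKM and at 1.15 and 15.5. The helicase Hfm1 had 23 reads at E18 and 1012 at 3 weeks, a ratio of 44.4 (29.4 to 70.3). Msh4 and Msh5, the MutS pair of meiosis, stood at 0.123 and 2.42 and at 0.259 and 1.65, and Mlh3 at 0.532 and 4.02. The nuclease Mus81, which resolves joined DNA in all cells, stood at 2.23 and 1.59, and the mismatch repair gene Msh6 at 5.19 and 8.93.

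At the telomeres, the complex that tethers chromosome ends to the nuclear envelope was higher and the somatic lamina was not. Of 12 genes 6 were higher and 1 lower. Terb1, Terb2 and Majin, the 3 parts of the meiotic telomere complex, had 0.0623 and 6.39 RPKM, 0.0553 and 3.62, and 0.0712 and 5.03. Kash5, which links telomeres to dynein, had 0.124 and 8.05, and Spdya, the activator of CDK2 at telomeres, 0.253 and 16.4, while Cdk2 itself had 5.58 and 12.04. The 5 genes particular to meiotic telomeres were below 1 RPKM at E18, and the general Cdk2 was well above it at both stages. Sun1, the envelope protein that binds Kash5, stood at 2.60 and 4.87. The member that was lower was Lmna, the A-type lamin of somatic nuclei, with 18.6, 15.5, 2.15 and 1.95 RPKM from E14 to 6 months.

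Among genes of damage signalling and the sex body, 7 of 20 were higher and 1 was lower. Atr, the kinase that spreads the silencing signal over unpaired chromosomes, stood at 2.26 RPKM at E18 and 37.4 at 3 weeks, a ratio of 16.6 (15.5 to 17.7), and Mdc1, the adaptor that carries it along the chromatin loops, at 3.44 and 39.5. The related kinase Atm stood at 1.13 and 2.22, the Atr partner Atrip at 1.86 and 1.53, and H2afx, the histone that both phosphorylate, at 43.4 and 45.8. Atr and Mdc1 thus stood apart from the kinase, the partner and the histone they act with. Of the clamp genes, the germ cell copies Rad9b (1.00 and 5.37) and Hus1b (0.0983 and 1.46) were higher, Rad9a was lower (7.38 and 2.45), and Hus1 stood at 1.01 and 1.15.

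Of 27 genes of the meiotic divisions 14 were higher and 0 lower, whereas of 30 mitotic cycle and replication genes 3 were higher and 6 lower. Ccna1, the cyclin of male meiosis, stood at 0.129 RPKM at E18 and 14.3 at 3 weeks, and its mitotic relative Ccna2 at 11.7 and 3.44. Aurkc, the germ cell Aurora kinase, had 0 reads at E18 and 58 at 3 weeks, at least 19.5-fold higher against a floor of 3 reads, while Aurkb stood at 2.67 and 1.14. Fbxo43, which restrains the anaphase-promoting complex in meiosis, had 0.0145 and 4.85 RPKM, and its mitotic relative Fbxo5 4.65 and 1.87. In these 3 pairs the meiotic form was higher and the mitotic relative was lower or not past 2-fold. The B-type cyclins differed, with Ccnb3 at 0.0960 and 2.83, Ccnb2 at 10.4 and 34.9 and Ccnb1 at 1.78 and 1.39. Among the 6 lower mitotic genes were the D-type cyclins Ccnd2 (5.90 and 1.09) and Ccnd3 (9.12 and 0.980) and the helicase subunit Mcm2 (13.8 and 4.83). The 3 higher ones were Ccne2 (2.47 and 16.4), which has a role in meiotic telomeres, and the replication factors Gins1 and Gins4 (6.18 and 10.2 RPKM at 3 weeks).

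Of 26 regulators of transcription in spermatocytes and spermatids 17 were higher and 0 lower (median 2.12). Kctd19 and Zfp541, partners in a complex of late prophase, stood at 0.0575 and 70.4 RPKM and at 0.154 and 15.8. Hsf5 stood at 0.211 and 48.1, Tcfl5 at 1.24 and 42.7, Mybl1 (A-MYB), the activator of pachytene genes, at 1.25 and 16.5, and the testis bromodomain protein Brdt at 0.834 and 23.9. Each of these was under 2 RPKM at E18. The germ cell forms of general transcription factors Gtf2a1l (0.108 and 24.8) and Taf7l (0.494 and 12.1) and the TBP relative Tbpl1 (1.54 and 13.6) were also higher. Fhl5 (ACT), a partner of CREM in spermatids, was not past 2-fold at 3 weeks (0.524 and 1.21) and stood at 37.7 RPKM at 6 months.

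Spermatogonial regulators did not share this pattern. Of 18 genes 1 was higher, Id4 (3.34 and 13.9 RPKM), and 1 was lower, Lhx1 (1.18 and 0.0868). Only 8 of the 18 reached 1 RPKM in either library, so low genes could hardly be counted on this scale. With 0.1 in place of 1 added to the RPKM, 2 were higher and 6 lower. The stem cell factors Zbtb16 (0.425 and 0.994), Gfra1 (0.568 and 0.171) and Sall4 (0.955 and 0.718) were below 1 RPKM in both libraries, and Pou5f1 stood at 1.23 and 0.220.

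Small RNA and mRNA handling genes of germ cells were higher with the meiosis genes. In the PIWI-piRNA list 19 of 23 were higher and 0 lower. Tdrd6, a tudor protein of the chromatoid body, had 0 reads at E18 and 922 at 3 weeks, at least 309.8-fold higher against 3 reads, and its relatives Tdrd1 (0.623 and 20.04 RPKM), Tdrd12 (0.324 and 14.3) and Tdrd5 (0.594 and 16.5) were higher as well. Pld6, the mitochondrial nuclease, stood at 0.346 and 10.96, Henmt1, which methylates piRNA ends, at 0.119 and 4.26, and Gtsf1 at 0.757 and 7.48. Among 30 genes of mRNA storage, translation and splicing 18 were higher and 1 was lower. The Y-box proteins Ybx2 and Ybx3, which store mRNA in germ cells, stood at 0.930 and 174 RPKM and at 12.2 and 221. Boll, a relative of Dazl, stood at 0.183 and 22.2, Rbm44 at 0.0683 and 11.2, and the chromatoid body helicase Ddx25 at 1.20 and 42.2. The gene that was lower, Samd4 (2.21 and 0.539), stood at 23.5 RPKM at 6 months.

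Genes of later steps were already higher at 3 weeks, though by different amounts. The axoneme and its transport had 41 of 46 higher and 0 lower, acrosome and egg binding genes 21 of 25, sperm channels and testis kinases 15 of 25, and genes of late spermatids 15 of 25. Dnah8, a dynein heavy chain of the sperm tail, stood at 0.321 and 102 RPKM, Spag6, of the central pair, at 0.147 and 32.3, and the transport protein Ift74 at 4.196 and 60.2. Tekt3 and Tekt4, tektins of sperm, had 0 reads at E18 and 1187 and 777 at 3 weeks, at least 399-fold and 261-fold higher. Some dynein heavy chains known from motile cilia of other organs were below 1 RPKM in both libraries, with Dnah5 at 0.110 and 0.149 and Dnah9 at 0.0971 and 0.220. The acrosomal genes Adam2 (0.0573 and 66.5) and Zpbp2 (0.0521 and 32.3) stood at 56.2 and 27.9 at 6 months, but the median level of the acrosome list was 3.97 RPKM at 3 weeks and 20.7 at 6 months. The late spermatid genes ran from Prm1, a protamine (0.175 and 0.573 RPKM, with 905 at 6 months), and Spem1 (0.168, 0.169 and 172) to Ropn1l (1.41, 92.2 and 186) and Odf4 (0 reads, 32.3 and 55.1).

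**Figure D2:**
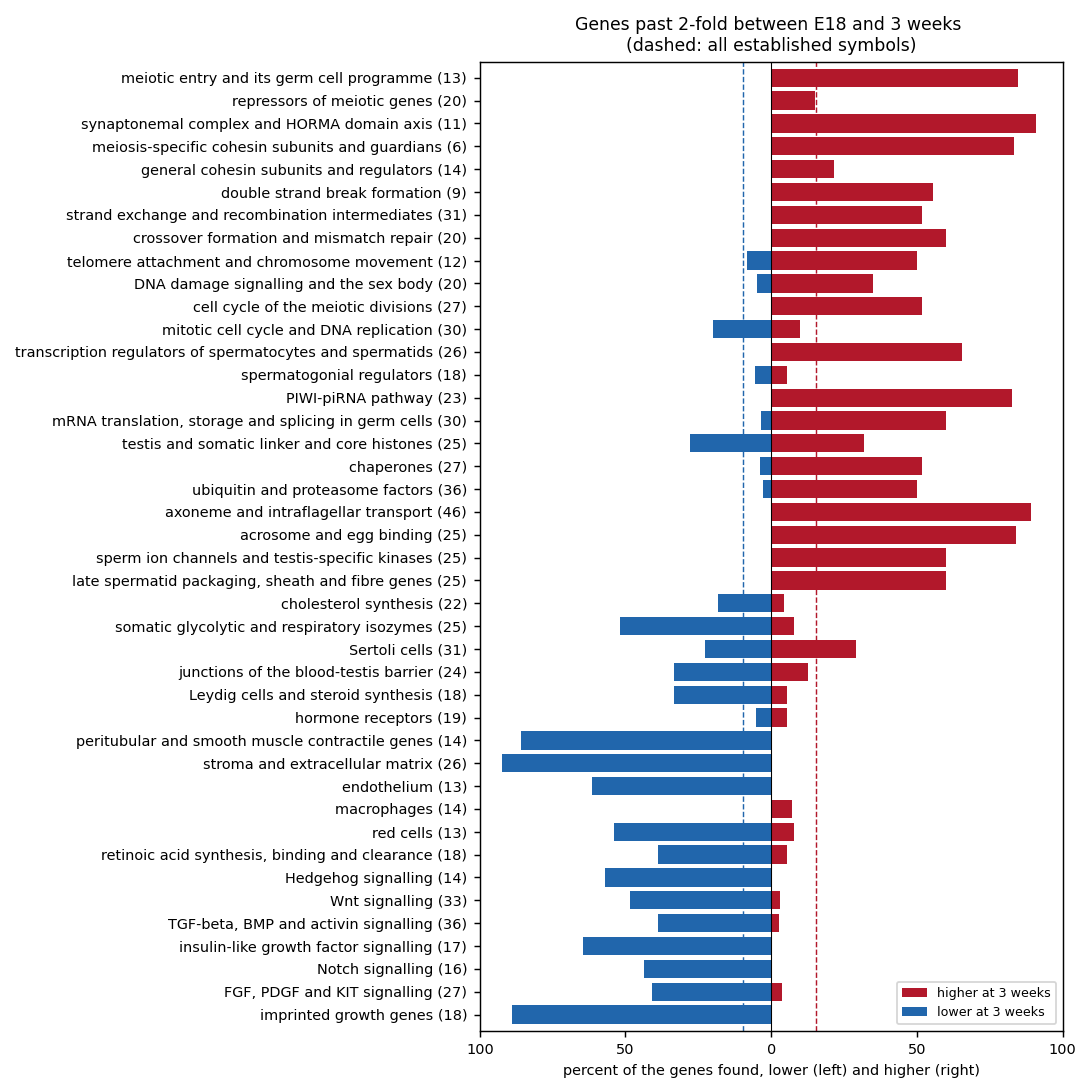
Percent of the genes found in each of 42 lists (y axis, number found in parentheses) that were at least 2-fold lower (blue, left) or higher (red, right) at 3 weeks than at E18, with dashed lines at the shares among all established symbols (9.50% and 15.5%). The synaptonemal complex, axoneme and meiotic entry lists extend farthest to the right, and the stromal, imprinted and contractile lists farthest to the left.

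Histone genes went in both directions, and chaperone and ubiquitin genes were mostly higher or not past 2-fold. Of 25 histone and histone chaperone genes 8 were higher and 7 lower. Transcripts of histones made for DNA replication mostly lack a poly(A) tail, and the protocols name poly(A) isolation. The part of that step in these values was not tested. The testis linker histone Hist1h1t stood at 1.15 and 132 RPKM, and the somatic linker histones Hist1h1b (88.4 and 1.27), Hist1h1c (73.7 and 15.8), Hist1h1e (37.2 and 6.22) and H1f0 (68.3 and 9.20) were lower, whereas Hist1h1a was higher (34.3 and 73.2). The linker histone chaperone Nasp stood at 2.83 and 25.5. Among 27 chaperones 14 were higher and 1 was lower, the collagen chaperone Serpinh1 (35.2 and 2.42). Hsp90aa1 stood at 9.99 and 113 and its relative Hsp90ab1 at 61.4 and 42.9. Hspa4l stood at 0.480 and 27.0, and Hspa1l, a spermatid form, at 0.650 and 0.346 with 29.1 at 6 months. Among 36 ubiquitin and proteasome genes 18 were higher and 1 was lower, Ube2c (5.01 and 1.78). Psma8, the alpha subunit of the spermatoproteasome, stood at 0.613 and 60.8, its activator Psme4 at 4.06 and 24.2, Ube2u at 0.152 and 24.0 and Cul3 at 6.01 and 40.9, while the constitutive subunits Psmb1 (34.4 and 33.8) and Psmb5 (11.4 and 8.62) were near equal.

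Germ cell forms were set against their general counterparts in 38 pairs. The germ cell form was higher in 30 and lower in 0, and the general form was lower in 14 and higher in 5. As a share of the summed RPKM of the pair, the germ cell form had a median of 6.98% at E18 and 82.5% at 3 weeks, and it held the larger share in 2 pairs at E18 and in 30 at 3 weeks. RPKM is already divided by length, but reads may be split or shared between the members of a pair where their sequences are alike. The shares are uncertain to that extent. The 16 pairs grouped by an X-linked general form had medians of 4.92% and 85.8%, and the other 22 pairs 8.50% and 79.7%. In the 16, the germ cell forms are mostly retrocopies on autosomes. The 22 also hold the X-linked general forms Smc1a and Stag2, so they are not a set without the X. Pgk2 of glycolysis stood at 0.0551 and 43.1 RPKM, where Pgk1 stood at 10.4 and 1.40. Gk2, a glycerol kinase copy, had 0.111 and 93.4, the centrin Cetn1 0.127 and 128, and Rpl10l, a ribosomal protein copy needed in meiosis, 0.743 and 19.7, where the X-linked Rpl10 had 4.11 and 0.846. In each of these the autosomal copy was the rarer transcript of its pair at E18 and the more abundant one at 3 weeks. Beyond the X, the testis cytochrome c Cyct stood at 0.357 and 99.6 and Cycs at 2.36 and 4.99. The cytochrome oxidase subunit Cox8c stood at 0.0614 and 74.0 and Cox8a at 62.7 and 11.7. Of glycolytic and respiratory genes of general use, 13 of 25 were lower and 2 were higher, Pfkm (5.36 and 13.9) and Pdhb (10.7 and 40.6), a split that turned to 2 lower and 8 higher under rescaling over ribosomal protein genes. Calr3, a chaperone of spermatids, remained below 1% of its pair (0.491% and 0.430%), with 5.81 RPKM at 6 months.

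**Figure D3:**
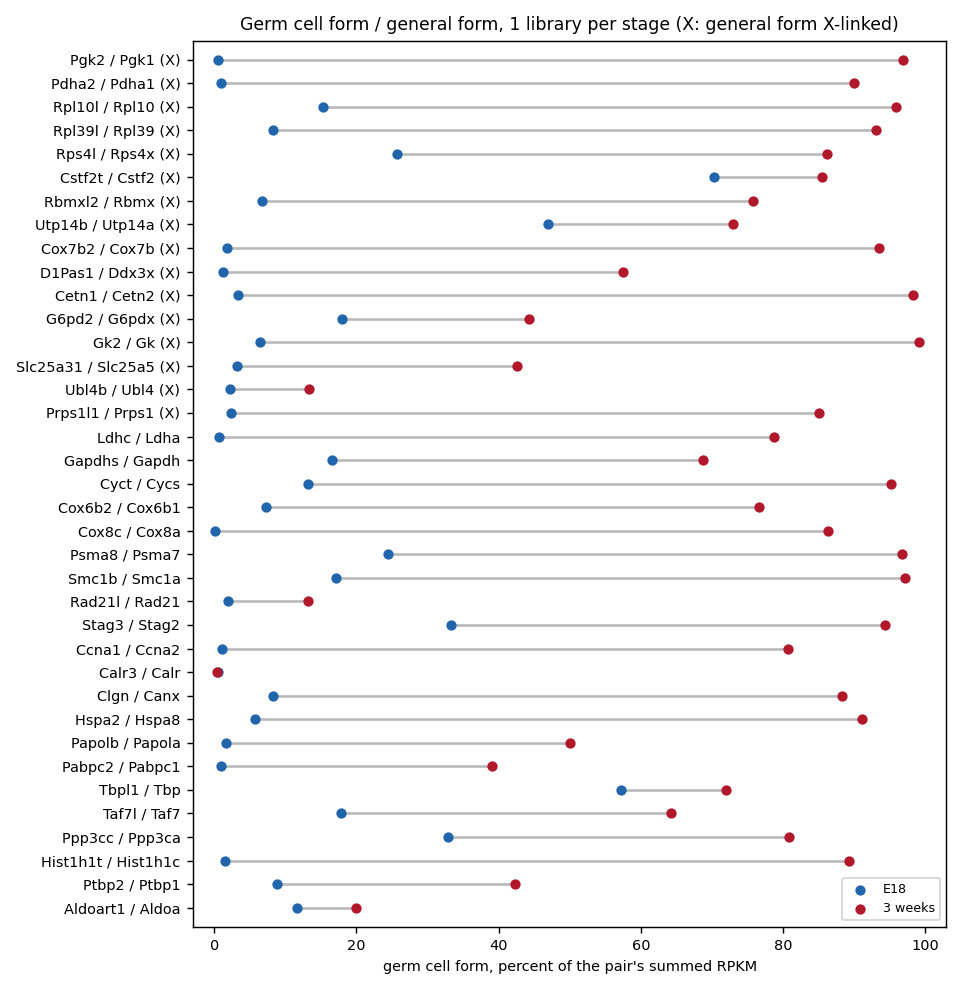
Share of the germ cell form in the summed RPKM of 37 of the 38 pairs (y axis, germ cell form before the slash) at E18 (blue) and 3 weeks (red), in percent. In 29 of the pairs drawn the red point lies above 50%, and the blue point does so in 2. The X mark leaves out Smc1b / Smc1a and Stag3 / Stag2, whose general forms are also X-linked.

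The X chromosome held few of the higher genes. Of 669 established X-linked symbols 46 were higher (6.88%) and 84 lower (12.6%), where the 19 autosomes ranged from 12.4% to 20.6% higher and from 7.18% to 14.7% lower. Among symbols of at least 1 RPKM in either library the median difference was -0.49 for the X and lay between 0.08 and 0.45 for the autosomes. The X held 2.82% of the summed RPKM of established symbols at E18 and 1.27% at 3 weeks, beside 2.61% at E14 and 1.35% at 6 months. Under the 4 rescalings the share of higher symbols stayed smaller on the X than on the autosomes together, from 5.68% against 10.9% with the median of ratios to 16.9% against 34.7% over ribosomal protein genes. The markers of other organs in the E18 library moved in the same comparison, and their part was not tested. The X-linked genes that were higher included several of germ cells. They also included the Sertoli cell genes Rhox8 (1.11 and 9.50 RPKM), Rhox5 (0.761 and 5.59) and Tsx (0.109 and 5.20). Nxf3, an export factor relative, stood at 0.441 and 19.5 RPKM, the crossover gene Tex11 at 0.169 and 4.24, the deubiquitinase Usp26 at 0.551 and 6.28, and the Polycomb protein Scml2 at 2.48 and 9.38. Among the lower ones, of which Gpc3 and Flna were picked after their values were seen, the angiotensin receptor Agtr2 stood at 43.0 and 0.248, the glypican Gpc3 at 68.8 and 2.98, filamin Flna at 37.1 and 4.998 and the pyruvate dehydrogenase subunit Pdha1 at 15.3 and 3.34. Chromosome 13, which carries the main histone cluster, had the highest autosomal share of lower symbols.

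**Figure D4:**
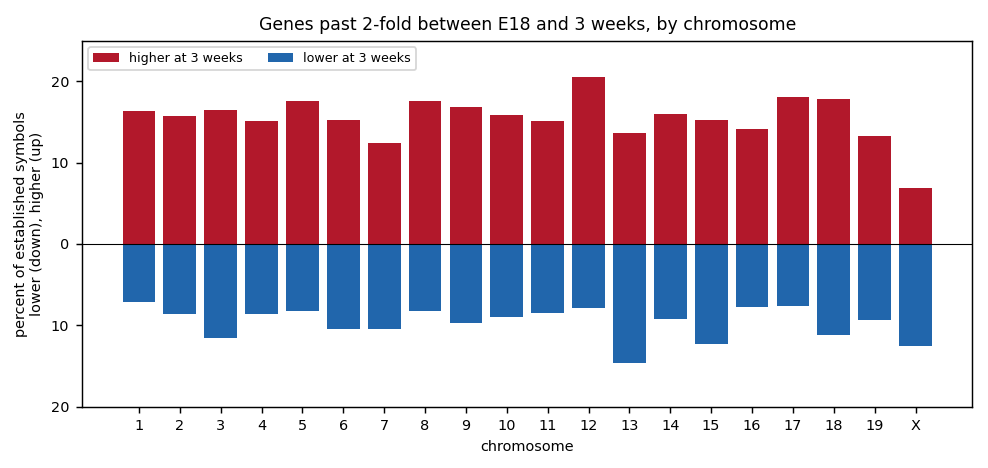
Percent of established symbols on each chromosome (x axis) that were at least 2-fold higher (red, up) or lower (blue, down) at 3 weeks than at E18. The X has the smallest red bar (6.88%), below those of the 19 autosomes.

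Grouped by the root of their symbols, 253 families had at least 10 established members. The families with the highest shares of higher members were Ift (12 of 13), Pcdha (10 of 11), Dnah (12 of 15), Cep (20 of 30), Efcab (8 of 12), Spata (16 of 26), Tex (16 of 26), Dnajb (8 of 13), Spag (6 of 11), Ttll (7 of 13), Mroh (5 of 10) and Tomm (5 of 10). These 12 families had 0 lower members. Cep proteins build centrosomes and basal bodies, Ttll enzymes add glutamate or glycine to tubulin, and Tomm proteins import proteins into mitochondria. The families with the highest shares of lower members were Hist (59 of 67), Fzd (6 of 10), Pcdhga (7 of 12), Col (23 of 45), Rpl (24 of 49), Hoxa (5 of 11), Rps (19 of 43), Itga (5 of 12), Tspan (8 of 20), Adamts (7 of 19), Anxa (4 of 11) and Bmp (4 of 12). The root Rps also takes in kinase genes such as Rps6ka1 and Rps6kb1, which encode no ribosomal protein. Histone and ribosomal protein genes have near-identical copies, and Pcdha and Pcdhga members share their last exons, so reads may be split or shared between members and the counts are uncertain. The limit from poly(A) isolation, given above for histone genes, holds for the Hist family too. Under rescaling over ribosomal protein genes the medians of the Anxa, Tspan and Pcdhga families turned from -0.46, -0.62 and -1.01 to 0.02, 0.04 and 0.03, and the Rpl and Rps families lie near 0 there by construction. The medians of the other 19 named families kept their sign in the rescalings run. The 2 alpha globin genes show such sharing, with 68420 reads at E18 and 1809 at 3 weeks for Hba-a1 and the same numbers for Hba-a2.

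Somatic genes of the testis went in several directions. Among 31 Sertoli cell genes, 9 were higher and 7 lower. Aard stood at 16.7 and 54.7 RPKM, the cystatin Cst12 at 18.8 and 43.0 and the secreted chaperone Clu at 26.3 and 65.5, all higher, and the defensin Defb19 at 35.6 and 46.3, not past 2-fold. The fetal product Amh (11.4 and 0.478) and the growth factor Gdnf (2.60 and 0.336) were lower. The lineage factors Sox9 (2.12 and 3.08) and Wt1 (7.95 and 7.07) were not past 2-fold. At the blood-testis barrier 3 of 24 were higher and 8 lower. Cldn11, its main claudin, stood at 5.90 and 29.0 and the tight junction protein Cgn at 1.09 and 3.42, while the epithelial claudin Cldn1 stood at 6.25 and 0.962. Of 18 Leydig cell genes 1 was higher and 6 were lower, and of 19 hormone receptors 1 was higher, Amhr2 (2.62 and 9.43), and 1 lower, the thyroid hormone receptor Thra (14.3 and 2.16). The medians of the barrier and Leydig lists, -0.43 and -0.65, turned to 0.32 and 0.29 under rescaling over ribosomal protein genes, and that of the Sertoli list, 0.06, to -0.17 under the median of ratios.

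Contractile, stromal and endothelial genes were mostly lower. Among 14 contractile genes of smooth muscle and peritubular cells 12 were lower, as were stroma and matrix genes in 24 of 26 and endothelial genes in 8 of 13, with 0 higher in these lists. Rescaling over ribosomal protein genes gave 7, 13 and 3 lower, again with 0 higher. Des, the muscle filament protein, stood at 37.0 and 1.09 RPKM, Mmp2, a matrix protease, at 57.0 and 2.56, Dcn, a proteoglycan, at 149.8 and 32.4, and Plvap, of fenestrated vessels, at 4.56 and 0.248. The 2 stroma genes not past 2-fold were Sparc, a matrix glycoprotein (42.6 and 30.2), and the laminin chain Lama1 (1.70 and 1.44). Of 13 red cell genes 7 were lower and 1 was higher. Of 14 macrophage genes 0 were lower and 1 was higher, the Fc receptor Fcgr3 (1.02 and 8.12 RPKM), while the complement gene C1qa stood at 5.99 and 3.46. The bladder, kidney and muscle markers that were lower in the same comparison come from organs that also hold contractile and stromal cells, and their part was not tested.

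On the deposited scale more signalling genes were lower than higher in each of 6 pathways. Of Hedgehog genes 8 of 14 were lower, of Wnt genes 16 of 33, of TGF-beta, BMP and activin genes 14 of 36, of insulin-like growth factor genes 11 of 17, of Notch genes 7 of 16 and of FGF, PDGF and KIT genes 11 of 27, with 0, 1, 1, 0, 0 and 1 higher. Among ligands, Dhh, made by Sertoli cells, stood at 7.64 and 3.10 RPKM, Wnt4 at 3.46 and 0.183, Inhba, the activin subunit, at 9.74 and 0.431, and Igf2 at 76.8 and 1.43. Among receptors, Smo stood at 10.4 and 1.16, Fzd1 at 4.70 and 0.390, Notch3 at 2.73 and 0.326, Fgfr1 at 3.89 and 0.510 and Pdgfrb at 12.1 and 1.08. Among targets, Gli1 stood at 7.11 and 0.691, Id3 at 9.38 and 0.707, Heyl at 2.30 and 0.346 and Spry2 at 5.82 and 0.508. Ligand, receptor and target were thus lower together in the Hedgehog pathway (Dhh, Smo and Gli1). The Wnt gene that was higher, the transcription factor Lef1, stood at 0.341 and 3.19. Kit (1.95 and 2.40) and its ligand Kitl (4.68 and 5.60) were not past 2-fold. Under rescaling over ribosomal protein genes 3, 6, 5, 7, 1 and 2 genes of these pathways were lower and 0, 2, 3, 1, 0 and 3 higher, so that the split of the FGF, PDGF and KIT genes turned, and the TGF-beta median turned from -0.51 to 0.06.

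In the retinoic acid pathway, which acts ahead of Stra8, 7 of 18 genes were lower and 1 was higher, a split that turned to 0 lower and 5 higher under rescaling over ribosomal protein genes. The synthesis gene Aldh1a2 stood at 14.5 and 32.5 RPKM and was the one counted higher, and Aldh1a1 stood at 49.4 and 49.6. The clearing enzymes Cyp26b1 (1.78 and 4.2004) and Cyp26a1 (0.115 and 0.794) were not past 2-fold. The receptors Rara (6.04 and 2.16), Rarg (3.32 and 1.04) and Rxra (6.75 and 1.31) and the reductase Dhrs3 (4.89 and 1.08) were lower. Of 18 imprinted growth genes 16 were lower and 0 higher, with Dlk1 at 18.6 and 0.130, Plagl1 at 22.6 and 0.889 and Cdkn1c at 17.4 and 0.531. The exceptions were Peg10 (4.93 and 8.46) and Phlda2, with 18 reads at E18 and 0 at 3 weeks. Cholesterol synthesis genes stayed nearer the background, with 4 of 22 lower and 1 higher, Fdft1 (5.60 and 14.1). The medians of the cholesterol, mitotic cell cycle, spermatogonial, hormone receptor and macrophage lists, -0.45, -0.23, -0.15, -0.07 and -0.34, turned to 0.43, 0.50, 0.27, 0.30 and 0.38 under rescaling over ribosomal protein genes.

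The 15 largest differences in each direction were taken among established symbols with a mean of at least 5 RPKM over the 2 libraries, and gave several genes of the testis that the lists do not hold. On the higher side were Cmtm2a at chr8:104281042-104293181 (0.161 and 164 RPKM) and its neighbour Cmtm2b at chr8:104322230-104330764 (0.0331 and 109.5), the LIM protein Fhl4 (0.514 and 212), the lactate dehydrogenase relative Ldhal6b (0.546 and 214), Spata33 (0.282 and 161), the small heat shock protein Hspb9 (0.402 and 143) and Pdcl2 (0.0490 and 104). Cmtm2b had 1 read at E18, so its ratio of 3309.7 has an interval of 594 to 130764. On the lower side, beside muscle actins and globins, were Alb, made in liver (41.0 and 0.0721), and Itm2a on the X (81.5 and 3.14). Hba-x, the embryonic alpha globin, had 1129 reads at E18 and 0 at 3 weeks, at least 373-fold lower against 3 reads. At the limit of 1 RPKM, Kif26b (1.0003 at E18) and Lyrm7 (1.0008 at 3 weeks) lay just inside and Pde7a (0.9998 at 3 weeks) and H1fnt (0.9995 at 3 weeks) just outside.

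The letter strings of the printed promoters were counted in all promoter windows. RefSeq windows were matched to 67 of the 88 axis, recombination and telomere genes (79 windows, since a gene can have several starts). Some windows of a gene overlap, such as those of Hormad1, so the same match can be counted more than once in the shares below. The E2F string, that of the factors that switch cell cycle genes, was in 24 of them (30.4%), against 4.60% of all 32851 windows, 9.10% of those of established symbols higher at 3 weeks and 6.84% of those lower. In the replication list, of which few genes were higher, it was in 37.5% of windows. The STRA8 string was in 15 of the 79 meiosis windows and 7.94% of all, the E-box in 16.5% and 7.15%, and the MYB string in 6.33% and 2.76%. The CRE string (TGACGTCA) was in 3.80% and 1.79%, and the RFX string (GTTGCNAT) in 1.27% and 2.96%. The STRA8 string was in 5 of the 13 windows of the entry list. Among all established symbols the MYB string was in 6.06% of the windows of higher genes and 2.35% of those of lower genes. In 2 meiosis windows a pair of these strings shared a base. In the windows printed above, the MYB string of Sycp1 begins 33 bases before the start and its STRA8 string at base 33 from the start. The STRA8 strings of Hfm1 begin 66 and 6 bases before it and that of Tex12 7 bases before, with its E2F string 145 bases before. The E-boxes of Sycp3 begin 64 and 43 bases before and its E2F string 147 bases before. The E-boxes left in lower case begin 94 bases before the start in Sycp1 and 93 bases before it in Tex12. A match describes letters, not a bound site.

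**Figure D5:**
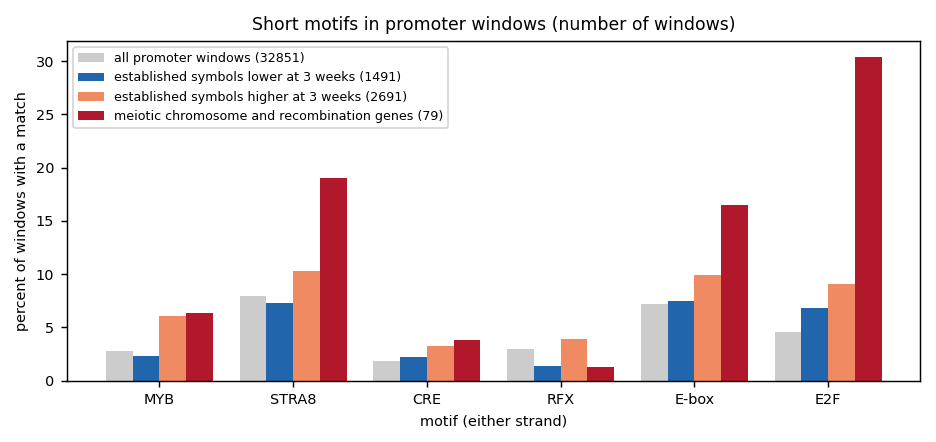
Percent of promoter windows (y axis) with a match on either strand for 6 short motifs (x axis), for all windows, for established symbols lower or higher at 3 weeks and for the axis, recombination and telomere genes, with the number of windows in parentheses. The E2F bar of the meiosis genes is the highest (30.4%), and their RFX bar lies below that of all windows.

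Exons that overlap another annotated gene can carry reads of both. Of 987 listed or named genes found in GENCODE, 288 had exons that overlap another gene on either strand, and how strand was handled in counting is not given in the sources used here. Among those named above they include Atr, Atrip, Brca2, Ccna1, Ccna2, Ccnd2, Ccnd3, Ccne2, Cdk2, Cdkn1c, Cmtm2a, Cntd1, Des, Dhh, Dnah8, Dnah9, Fdft1, Fgfr1, Gfra1, Gli1, H1f0, H2afx, Henmt1, Hist1h1e, Hsf2bp, Hspa1l, Id4, Igf2, Kctd19, Ldhal6b, Lef1, Msh4, Msh6, Mus81, Notch3, Pdha1, Pfkm, Plagl1, Pou5f1, Psmb5, Psmc3ip, Rad9a, Rad9b, Rpl10, Sall4, Samd4, Setdb1, Six6os1, Spag6, Spdya, Stag2, Sun1, Sycp3, Tbpl1, Tcfl5, Tdrd5, Thra, Ube2c, Xrcc3 and Zcwpw1. The values of these genes are uncertain to that extent.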

How the data were processed

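RNA of 4 testis libraries of the BALB/C strain was measured, 1 library per stage, and those of E18 and 3 weeks were compared. Per the labels' protocols, bought tissue RNA was depleted of ribosomal RNA, given ERCC spike-in RNA, taken through poly(A) isolation and made into directional libraries. Per the submitters' processing notes, TopHat2 and mm10 were used. Which tool, annotation and strand setting served for counting was not given in the sources used here. The authors deposited RPKM for 112302 entries per library.

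Each entry's reads were recovered as the smallest whole numbers that give its RPKM values in the libraries (100.0000% of 88052 entries above 0 in at least 2 libraries, relative tolerance 1e-10), so an interval can be too wide where a common factor was lost. From E14 to 6 months the libraries totalled 38903334, 34228140, 33952471 and 35801602 reads, and 3 reads in a gene model of 1 kb come to 0.0876 RPKM at E18 and 0.0884 at 3 weeks. Whole reads allow a count test in principle, but 1 library per stage leaves no residual degrees of freedom, so no p-value is given. Intervals of ratios are exact 95% binomial (Clopper-Pearson) and cover counting error only.

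Differences are of log2(RPKM + 1) between the deposited values, with a limit of 2-fold. Symbols were matched to GENCODE M21 (GRCm38) and RefSeq synonyms. Named genes are members of 42 gene lists, 6 marker lists of other tissues and 38 pairs, the 15 established symbols of largest difference in each direction with a mean of at least 5 RPKM, and the entries nearest 1 RPKM. The comparison, members and lists were chosen with earlier results of these data known. The steps were tested on simulated data. A few members counted in the lists and pairs are not reported here by name, and 1 pair is not drawn. Alternatives were a pseudocount of 0.1, a limit of 4-fold, 4 rescalings, other RPKM minimums, established symbols alone and the pair E14 and 6 months. Python 3.11.15, pandas 2.3.3, numpy 2.4.6, scipy 1.17.1 and matplotlib 3.10.9 were used.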

Additional observations from a re-analysis of the deposited data

How the results depend on the processing

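Each stage has 1 library, so the spread between animals, dissections and library preparations is not known. No paired analysis was possible because each stage has 1 library, and no library could be left out. Of the 13742 entries higher and 4532 lower at 3 weeks, a limit of 4-fold gave 6922 and 852, a minimum of 5 RPKM gave 8547 and 2472, established symbols alone gave 2658 and 1625, and rescaling over ribosomal protein genes gave 25090 and 1080. A pseudocount of 0.1 gave 7032 lower. These counts follow from the limits, except under the rescaling, where the cause was not tested. Of the 53 meiosis genes that were higher, the 4-fold limit gave a count of 31, and 33 were higher at 6 months than at E14. The other alternatives left these counts within 1.5 times. Of the counts of higher and lower genes for the lists, 84 stayed within 1.5 times under an equal sum over all entries and 12 did not, while over ribosomal protein genes 56 did and 40 did not. Low genes are limited by depth, since 3 reads in a gene model of 1 kb are 0.0876 RPKM at E18. Of 517 listed genes past 2-fold, the counting interval excluded a ratio of 1 in 516. These genes were picked by their difference in the same reads, so the interval is no separate check of them.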

Other observations

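Among the pairs of a germ cell form and a general form, 8 germ cell forms were not past 2-fold at 3 weeks, and several of these are known from later spermatids. Gapdhs, the glycolytic dehydrogenase of the sperm tail, stood at 1.505 RPKM at E18, 2.73 at 3 weeks and 162 at 6 months. Ubl4b, a retrocopy of the X-linked Ubl4a, stood at 0.0849, 0.235 and 67.7, and G6pd2, a retrocopy of the X-linked G6pdx, at 0.750, 1.77 and 9.69. Aldoart1, an aldolase retrocopy, stood at 7.69, 4.26 and 33.4. These 4 were higher at 6 months than at 3 weeks. Of the 8, Cstf2t (14.6 RPKM at 3 weeks and 7.09 at 6 months) and Rad21l (0.976 and 0.303) went the other way.

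Outside the established symbols, entries of at least 1 RPKM in either library leaned further to the postnatal library. Of 27383 such entries 40.5% were higher at 3 weeks and 10.6% lower. Of the 10825 established symbols at the same minimum, 2658 were higher (24.6%) and 1625 lower. Of 467 entries that GENCODE types as antisense, 38.1% were higher and 10.3% lower, near the 36.0% and 11.9% of all entries compared. Of the long intergenic RNA entries 228 reached 1 RPKM at 3 weeks alone and 34 at E18 alone.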
